A study of Nothobranchius furzeri with 20 samples.

Results

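Livers of 9-week-old male turquoise killifish (Nothobranchius furzeri, strain MZM-04/10p) were compared at the highest and the lowest rotenone dose of the series: 5 libraries at 10% of the LC50 against 5 libraries at 0.1% of the LC50. The LC50 is the median lethal concentration, and the labels give doses only as a share of it, without a duration or route. These 10 libraries, of 20 in the series, were chosen by their dose and age labels, with earlier results of these data known. The remaining libraries are 5 at 9 weeks and 1% of the LC50 and 5 at 27 weeks and 1%. All 20 libraries are labelled with rotenone, so there is no untreated level behind any value given here. Each library's title carries a number of its own, but the labels do not state that each library came from a separate fish. The p-values therefore measure only how these libraries vary, which may be technical.

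Rotenone blocks complex I of the mitochondrial respiratory chain, the enzyme that passes electrons from NADH to ubiquinone, and so limits ATP production and can raise the release of reactive oxygen species. The liver relies on mitochondrial respiration for synthesis and detoxification and is the main site where foreign compounds are oxidised. Nothobranchius furzeri is a short-lived annual fish used in research on ageing, and MZM-04/10p is a strain derived from a wild population. The deposited gene identifiers are not paired with gene names in the sources used here. Liver markers could therefore not be checked, genes are described by their values, and at most a pair of identifiers is given in each direction. In bulk tissue, fewer cells of a type and less RNA per cell cannot be told apart.

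Depth overlapped between the doses. Total counts were 24.9 M to 30.4 M per library at 10% (M, mega) and 25.4 M to 29.8 M at 0.1% (exact permutation test of 5 against 5 libraries, two-sided, p = 0.817, also after adjustment). Genes with at least 1 count numbered 19844 to 20238 at 10% and 19057 to 20251 at 0.1% (exact permutation p = 0.183, 0.321 after Benjamini-Hochberg adjustment over 3 library measures). The 100 genes with most counts took 53.2% ± 1.17 of the counts at 10% and 49.4% ± 6.40 at 0.1% (SD, n = 5 each; exact permutation p = 0.214, 0.321 adjusted). At 10% that share lay between 52.2% and 55.2% in every library. At 0.1% it was 48.4%, 55.3%, 56.1%, 40.7% and 46.6% in replicates 1 to 5, so replicate 4 put the least of its counts into the most abundant transcripts. The TMM factors, by which the totals were scaled, were 0.929 to 0.997 at 10%. At 0.1% these factors were 0.919, 0.805, 0.872, 1.37 and 1.04 in replicates 1 to 5. The 0.1% libraries were deposited in a table of their own, and the dose and the table cannot be told apart.

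The libraries at 0.1% did not form a compact group. The distance between a pair of libraries, taken as the root mean square of log2 CPM differences over 16516 genes (CPM, counts scaled to each library's TMM-adjusted total), was 0.736 between replicates 1 and 5 at 0.1% and 0.661 between replicates 2 and 3. All other pairs at 0.1% were 0.953 to 1.38 apart, and replicate 4 was 1.14 to 1.38 from each of the others. The 10 pairs at 10% were 0.664 to 0.990 apart. Replicates 1 and 5, 2 and 3, and 4 at 0.1% were therefore left out in turn where a result turned on them. The sample titles number each of the other groups in 1 unbroken run, but the 0.1% libraries in no single run. Replicates 2 and 3 have adjacent numbers, and so do replicates 4 and 5, which were 1.17 apart. What the numbers stand for is not given, and whether they go with the spread at 0.1% was not tested.

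Across the expressed genes, distances between the doses lay between the distances within 10% and those within 0.1%. The mean distance was 0.942 over the 25 pairs that joined a 10% to a 0.1% library, 0.747 over the 10 pairs within 10% and 1.05 over the 10 pairs within 0.1%. Without replicate 4 at 0.1% the means were 0.920 between doses and 0.928 within 0.1%, and so nearly equal. The single nearest library was of the same dose for 5 of 5 libraries at 10% and for 4 of 5 at 0.1%, replicate 4 being the exception. Spearman's rho across genes, a description of libraries that share their genes and not a test, was 0.880 to 0.965 between doses, 0.931 to 0.970 within 10% and 0.868 to 0.977 within 0.1%. Every library at 10% lay nearer on average to its own group than to the 0.1% group. All 5 libraries at 0.1% lay nearer on average to the 10% group than to their own group, and 3 of 4 did so without replicate 4. Of the total sum of squares of log2 CPM, 13.9% lay between the doses, 28.5% among libraries at 10% and 57.5% among libraries at 0.1%. Without replicate 4 at 0.1% these shares were 21.27%, 36.16% and 42.57%. The share between doses was 19.22% without replicates 1 and 5 at 0.1%, and 21.37% without its replicates 2 and 3. The shares are not on one scale, as the part between doses rests on 1 difference of means and the parts within on several libraries. Some share between the groups also arises without any difference between the doses.

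The widest axis of variation in these livers ran within both doses, and the next widest mainly within the 0.1% group. Principal components were computed from the 2000 most variable genes without use of the groups. Component 1, with 40.4% of the variance, placed the 10% libraries between -38.5 and 52.7 and the 0.1% libraries between -67.7 and 65.5 (exact permutation p = 0.595, also after adjustment over 3 components). Component 2, with 20.9%, placed the 10% libraries between -4.81 and 17.8, and set replicates 2 and 3 at 0.1% (-57.4 and -45.1) apart from replicates 1, 4 and 5 (20.4 to 32.2; exact permutation p = 0.556 for the doses, 0.595 adjusted).

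Component 3, with 11.4% of the variance, separated the doses. Its scores were 12.7, 23.1, 24.1, 23.8 and 14.2 in replicates 1 to 5 at 10%, and -22.2, -15.4, -11.3, -33.1 and -15.9 in replicates 1 to 5 at 0.1%. The groups did not overlap (exact permutation p = 0.00794, the smallest that 5 against 5 libraries allow; 0.0238 adjusted over 3 components). Without replicate 4 at 0.1%, the best matching component differed by 17.28 in place of 39.2 and did not pass (exact permutation p = 0.206), although its match to component 3 was only 0.650 as an absolute correlation of scores. In that setting component 2 differed by 40.98 between the doses (exact permutation p = 0.0317, 0.0952 adjusted over 3 components), with scores of -2.50 to 29.2 at 10% and -54.2 to 4.39 at 0.1%. Without any one of the other libraries of both groups the difference on the best matching component was 35.1 to 41.9. Its match to component 3 was 0.791 without replicate 2 at 0.1%, 0.885 without replicate 1 at 0.1%, and otherwise 0.959 to 0.999.

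**Figure D1:**
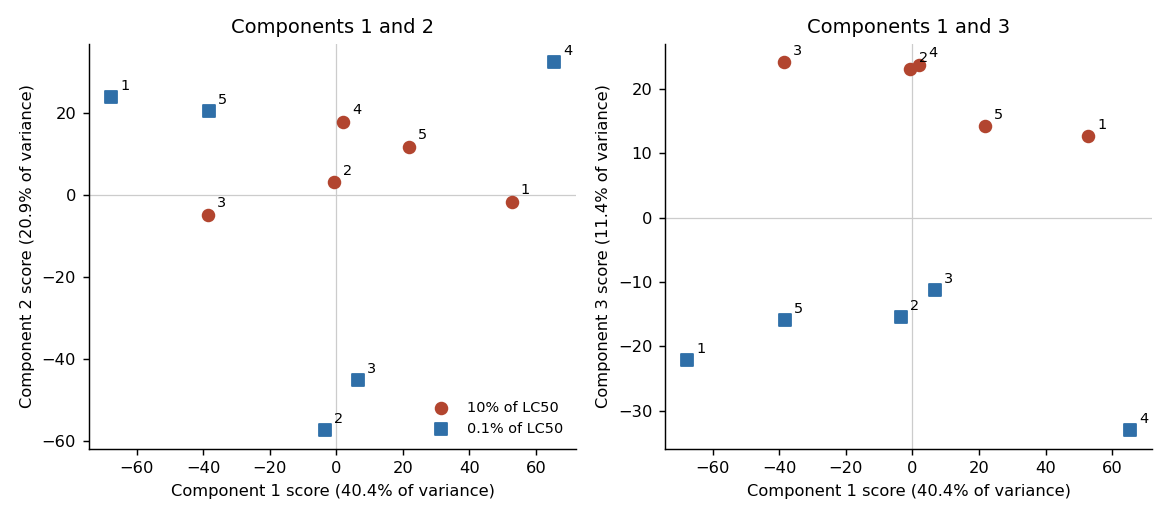
Scores of the 10 libraries on components 1 and 2 (left) and 1 and 3 (right), circles for 10% and squares for 0.1% of the LC50, numbered by replicate. Both doses spread along component 1, replicates 2 and 3 at 0.1% stand apart on component 2, and component 3 is above 0 in every 10% library and below 0 in every 0.1% library.

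The genes with the largest weights on component 1 varied at both doses. Among the 100 genes with the largest weights, 82 had weights of one sign, and together they held 0.282%, 0.0507%, 0.00981%, 0.0755% and 0.152% of the counts in replicates 1 to 5 at 10%. In replicates 1 to 5 at 0.1% they held 0.00534%, 0.0193%, 0.0262%, 0.753% and 0.0255%. Replicate 1 at 10% and replicate 4 at 0.1% were thus the highest of their groups for the same genes, and replicate 3 at 10% and replicate 1 at 0.1% the lowest. The other 18 genes held 0.000326% to 0.108% at 10% and 0.000894% to 0.218% at 0.1%, with the lowest share at 10% in replicate 1 and the highest at 0.1% in replicate 1. These genes were picked for their variation in the same libraries, so the shares are a description.

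Of 16516 genes tested, 8 differed between the doses, 3 higher and 5 lower at 10%. These are 0.0484% of the genes tested (0.0182% higher and 0.0303% lower). The test was edgeR's quasi-likelihood F-test over all 20 libraries, two-sided, with Benjamini-Hochberg adjustment at 0.05. In the same fit, 21.7% of genes differed between 10% and 1% and 19.4% between 0.1% and 1% at 9 weeks; these comparisons share libraries with the one described here. All 8 genes had ranges of CPM that did not overlap between the doses, against 2.31% of all genes tested. The 8 were picked for a difference between these same libraries, so this is a description and no further support.

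Nfu_g_1_006676 rose with the smallest p of all genes tested. It stood at 141, 127, 102, 65.8 and 85.7 CPM in replicates 1 to 5 at 10%, and at 17.6, 18.1, 24.99, 35.7 and 19.9 CPM in replicates 1 to 5 at 0.1%. The lowest library at 10% was above the highest at 0.1%. The log2 fold change was 2.16 ± 0.26 (SE; edgeR adjusted p = 0.00153), with a 95% interval of 1.63 to 2.68 by limma voom. It was 10.0 to 21.8 CPM in the 9-week 1% libraries and 13.0 to 18.8 CPM in the 27-week 1% libraries, so that it was high at 10% alone among the 4 groups.

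Nfu_g_1_014163 also rose and varied little within either dose. It stood at 54.2, 58.2, 69.4, 79.9 and 63.3 CPM in replicates 1 to 5 at 10%, and at 26.9, 26.9, 26.2, 20.5 and 30.7 CPM in replicates 1 to 5 at 0.1%. No library at 10% came down to the level of any library at 0.1%. Its log2 fold change was 1.31 ± 0.18 (SE; edgeR adjusted p = 0.00630; 95% interval 0.93 to 1.69 by limma voom), a ratio of means of 2.48. The 9-week 1% libraries ranged from 11.9 to 26.4 CPM and the 27-week 1% libraries from 23.4 to 30.6 CPM, all below the 10% libraries.

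Nfu_g_1_005521 fell at 10%. It stood at 54.1, 67.2, 101.2, 79.1 and 79.3 CPM in replicates 1 to 5 at 10%, and at 336, 273, 279, 132 and 286 CPM in replicates 1 to 5 at 0.1%. The groups did not overlap, and replicate 4 was the lowest library at 0.1%. The log2 fold change was -1.78 ± 0.26 (SE; edgeR adjusted p = 0.00779; 95% interval -2.28 to -1.22 by limma voom). Libraries at 1% held 131 to 331 CPM at 9 weeks and 162 to 270 CPM at 27 weeks, above every library at 10%.

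Nfu_g_1_007647 had the largest fitted fall of the 8 genes and the widest spread at 0.1%. It stood at 24.97, 40.01, 18.0, 21.9 and 62.7 CPM in replicates 1 to 5 at 10%, and at 1729, 113, 401, 238 and 765 CPM in replicates 1 to 5 at 0.1%. The groups did not overlap, but the libraries at 0.1% differed among themselves more than 10-fold. The log2 fold change was -4.28 ± 0.65 (SE; edgeR adjusted p = 0.00895), and -3.82 by limma voom (95% interval -5.02 to -2.63). It was 33.7 to 178 CPM in the 9-week 1% libraries, with a mean of 113 CPM between those of both other doses, and 848 to 1519 CPM in the 27-week 1% libraries. Without replicates 1 and 5 at 0.1%, the log2 fold change was -2.92 and the call was lost (edgeR adjusted p = 0.0837). With only both groups in the fit it also missed the threshold (edgeR adjusted p = 0.117).

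**Figure D2:**
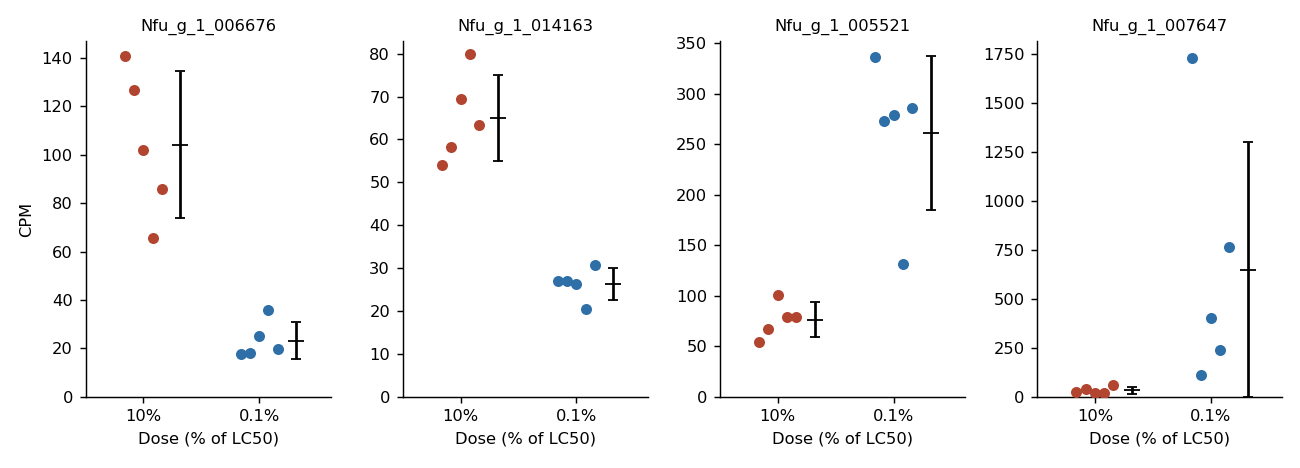
CPM of 4 called genes in the 5 libraries at 10% (left) and the 5 libraries at 0.1% of the LC50 (right) on linear axes from 0, points for libraries in replicate order, the bar beside them for the mean ± SD. The groups do not overlap in any panel, and the 0.1% libraries of Nfu_g_1_007647 run from 113 to 1729 CPM.

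The other 4 called genes had fewer counts, with means of 2.09 to 34.7 CPM over the 10 libraries. The third gene that rose had 1.41 to 9.57 CPM at 10% and 0.387 to 1.17 CPM at 0.1% (log2 fold change 2.86 ± 0.45, SE; edgeR adjusted p = 0.0123), and all 10 libraries at 1% held 0.763 CPM or less. The third gene that fell had 14.26 to 23.0 CPM at 10% and 37.8 to 63.5 CPM at 0.1% (log2 fold change -1.59 ± 0.26, SE; edgeR adjusted p = 0.0130). It averaged 17.2 ± 6.14 CPM in the 9-week 1% libraries (SD, n = 5), near its level at 10%, so here the 0.1% libraries were the high ones. The fourth gene that fell had 0.223 to 0.725 CPM at 10% and 1.69 to 6.09 CPM at 0.1% (log2 fold change -2.72 ± 0.48, SE; edgeR adjusted p = 0.0428), with replicates 1 and 5 the highest at 0.1%. The fifth had 4.62 to 8.43 CPM at 10% and 13.9 to 96.2 CPM at 0.1% (log2 fold change -2.85 ± 0.51, SE; edgeR adjusted p = 0.0451), again with replicates 1 and 5 far above the others at 0.1%.

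In 4 of the 8 called genes the 10% libraries lay outside the range of all 15 other libraries of the series, these being all 3 genes that rose and Nfu_g_1_005521. The calls already set the 10% libraries apart from those at 0.1%. The share of all genes tested with this pattern was not counted. Between 10% and 1% at 9 weeks, 6 of the 8 genes passed the edgeR test (against 21.7% of all genes), and between 0.1% and 1% 4 of the 8 passed (against 19.4%). The 8 genes were picked for a difference between 10% and 0.1% in the same fit. A difference of either dose from 1% follows in part from that choice, so the shares are a description. Nfu_g_1_007647 passed both comparisons with 1%, with log2 fold changes of -1.75 for 10% against 1% (edgeR adjusted p = 0.0375) and 2.53 for 0.1% against 1% (edgeR adjusted p = 0.00552). The fourth gene that fell also passed both, with -1.40 (edgeR adjusted p = 0.0392) and 1.32 (edgeR adjusted p = 0.0474). The fifth gene that fell did not pass between 10% and 1% at 9 weeks (log2 fold change 0.15; edgeR adjusted p = 0.864). It was higher at 0.1% than at 1% at 9 weeks (edgeR adjusted p = 0.000505). At 27 weeks the 1% libraries held 19.4 to 52.4 CPM, within its range of 13.9 to 96.2 CPM at 0.1%.

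**Figure D3:**
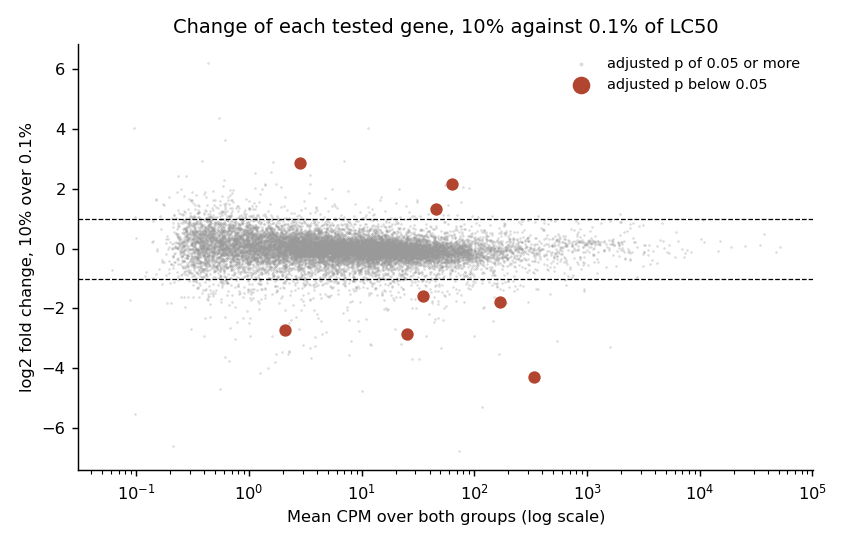
log2 fold change of each tested gene, 10% over 0.1% of the LC50, against its mean CPM over both groups on a log axis, with dashed lines at 2-fold. The 8 called genes (large points, 3 above and 5 below 0) stand among 783 genes with a fitted change of 2-fold or more, most of which did not pass.

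The calls depended on which libraries of both doses were in the fit. Nfu_g_1_006676, Nfu_g_1_014163 and Nfu_g_1_005521 passed without any one of the 10 libraries, with log2 fold changes of 2.01 to 2.37, 1.21 to 1.37 and -1.95 to -1.68. The call of Nfu_g_1_007647 ended without replicate 1 or 4 at 10%, that of the third gene that rose without replicate 1 or 4 at 10% or 1 or 5 at 0.1%, and those of the other 3 genes without 6 or 7 of the 10 libraries in turn. The number of calls was 37, 26 and 22 without replicates 2, 3 and 4 at 0.1%, of which all 8 genes above were part each time, and 4 without replicate 1 or 5 at 0.1%. It was 3 without replicate 1 or 4 at 10%, and 5 without replicate 3 or 5 at 10%. Without replicates 2 and 3 at 0.1% together, 192 genes passed, 53 higher and 139 lower at 10%, again with the 8 among them. Without replicates 1 and 5 at 0.1% together, 0 genes passed in edgeR, where the smallest adjusted p was 0.0618 and 967 of 16941 genes had an unadjusted p below 0.05; limma voom called 3 and DESeq2 47. Without replicate 5 of the 9-week 1% group, 23 genes passed.

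The count also depended on the tool. DESeq2's Wald test called 139 genes at an adjusted p below 0.05 (0.845% of those given an adjusted p), 22 higher and 117 lower at 10%, among them all 8 called by edgeR. Ranges did not overlap between the doses in 79 of the 139 (2.31% of all genes tested), which were picked for a difference between the same libraries. limma voom called 5 genes (0.0303%), all within the 8. With only both groups in the edgeR fit, 9 genes passed, of which 4 were among the 8. At an unadjusted edgeR p below 0.05 there were 1079 genes (6.53%).

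Ranges separated the doses in 2.31% of the genes tested, the 8 calls among them. If dose labels were random, a gene would separate with a probability of 0.00794. Genes share their libraries, so the excess was not tested. Of the 381 genes whose CPM ranges did not overlap, 117 were higher (0.708% of genes tested) and 264 lower (1.60%) at 10%. Their differences were modest: the median log2 fold change was 0.77 for those higher and -0.69 for those lower, and 34 and 102 of them changed by less than 1.5-fold in the fit. Of all 26739 genes, 3 had a count in each library at 10% and none at 0.1%, but they summed to 6 to 10 counts over the 5 libraries at 10%, and none had the reverse pattern.

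Fitted changes of 2-fold or more were seen in 783 genes, 284 higher and 499 lower at 10%. Of the genes that were lower, 150 (30.1%) had over 50% of their summed CPM at 0.1% in 1 library, which was replicate 1 for 68 of them and replicate 4 for 42. Of the genes that were higher, 36 (12.7%) had over 50% of their summed CPM at 10% in 1 library. Ranges did not overlap for 86 of the 499 and 42 of the 284. These genes were picked by their change in the same libraries, so the counts are a description. Of all genes tested, 1.6% lay lower and 0.708% higher at 10% without overlap.

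With all 20 libraries fitted, the change between doses could be bounded within 2-fold for most expressed genes, but within 1.5-fold for few. Each gene's log2 fold change was bounded with limma voom over all 20 libraries, by testing one-sidedly against both limits and adjusting the larger p over all genes. The change was bounded within 4-fold for 15123 genes (91.6%), within 2-fold for 9168 genes (55.5%) and within 1.5-fold for 153 genes (0.926%). The median half-width of the 95% interval was 0.68 on the log2 scale, or 1.60-fold. That left 7340 genes (44.4%) neither called as different nor bounded within 2-fold.

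How tightly a gene was bounded varied with its abundance. Within 2-fold were 10.1% of the 2535 genes below 1 CPM, 53.5% of the 6940 genes from 1 to 10 CPM, 75.3% of the 6094 genes from 10 to 100 CPM and 64.4% of the 947 genes at 100 CPM or more. The median half-width was 1.17, 0.72, 0.50 and 0.59 in these classes, so the most abundant genes were bounded less tightly than those of the class below. CPM are not per length, so the classes rank genes by counts and not by transcript level. Among the 100 genes with most counts, 62 were bounded within 2-fold, 92 within 4-fold, and 0 were called by edgeR (6 had an unadjusted p below 0.05; limma voom called 0 and DESeq2 1).

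**Figure D4:**
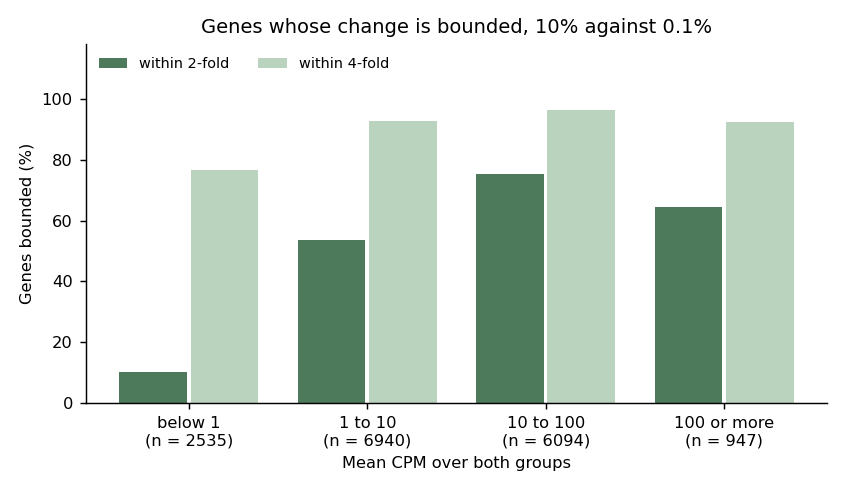
Share of genes (%) whose change, 10% against 0.1% of the LC50, was bounded within 2-fold (dark bars) and 4-fold (light bars) by limma voom, by mean CPM over both groups. The 2-fold share is 10.1%, 53.5%, 75.3% and 64.4% from the lowest to the highest class.

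The count of bounded genes moved with the libraries in the fit. With only the 10 libraries of both doses, 10472 of 15718 genes were bounded within 2-fold (66.6%), and 3054 within 1.5-fold. With library quality weights in limma voom, 4487 of 16516 genes were bounded within 1.5-fold. Without replicate 5 of the 9-week 1% group, 3579 of 16766 were. Without any one of the 10 libraries, 7992 to 8700 genes were bounded within 2-fold, 47.7% to 52.0% of those tested, and 0 within 1.5-fold. Most genes were thus bounded within 2-fold in some of these fits and not in others.

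Genes varied less between libraries at 10% than at 0.1%. The SD of log2 CPM had a median over genes of 0.31 at 10% and 0.44 at 0.1%, and the SD was larger at 0.1% in 74.5% of the 16516 genes. It was at least 2 times as large at 10% in 651 genes and at least 2 times as large at 0.1% in 4373 genes. Without replicate 4 at 0.1% the median was 0.36 there, and the SD was larger at 0.1% in 59.2% of genes. These were 0.39 and 63.0% without replicates 1 and 5 at 0.1%, and 0.41 and 66.6% without its replicates 2 and 3. The counts at 2 times or more were 1747 at 10% and 3232 at 0.1% without replicate 4. They were 2171 and 4244 without replicates 1 and 5, and 1856 and 4614 without replicates 2 and 3. SDs of fewer libraries are less certain, so these counts are not on one scale with those of all libraries. The contrast was widest among abundant genes: at 100 CPM or more the median SD was 0.22 at 10% and 0.48 at 0.1%, and 89.2% of genes varied more at 0.1% (0.36 and 74.3% at 0.1% without its replicate 4). For the 100 genes with most counts the medians were 0.21 at 10% and 0.51 at 0.1%.

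As genes are not replicates, the spread was tested with 1 value per library, its distance to the mean of the other 4 libraries of its group. It was 0.708, 0.497, 0.674, 0.540 and 0.528 in replicates 1 to 5 at 10%, and 0.906, 0.768, 0.706, 1.09 and 0.691 in replicates 1 to 5 at 0.1%. Only replicate 1 at 10% reached into the range of the 0.1% libraries. The means were 0.590 ± 0.095 at 10% and 0.832 ± 0.168 at 0.1% (SD, n = 5 each), a difference of -0.243 (exact permutation test, two-sided, p = 0.0238). Each library also enters the mean for the other 4 of its group. The 5 distances of a group are therefore not independent, and the p of permuting them is approximate. The difference stayed between -0.313 and -0.179 without any one library. There, distances in the reduced group were to a mean of fewer libraries, which by itself changes them. The difference missed the threshold without replicate 2, 4 or 5 at 10% (exact permutation p = 0.127, 0.0952 and 0.0873).

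**Figure D5:**
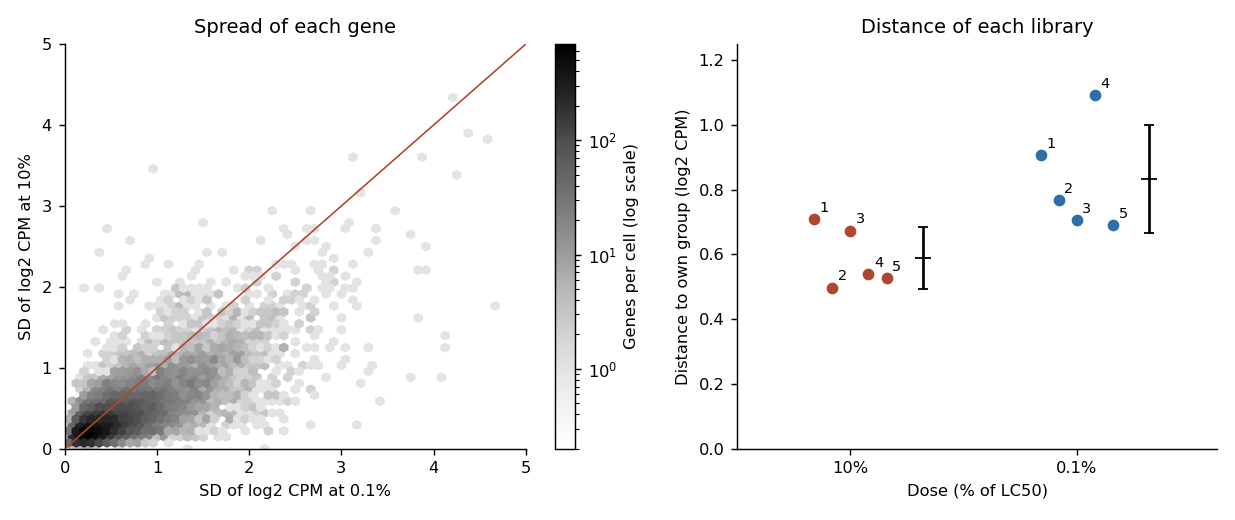
Left, SD of log2 CPM of each gene at 10% (vertical) against 0.1% of the LC50 (horizontal), shaded by the number of genes on a log scale, with the line of equal spread; 3 genes lie beyond the axes. Right, distance of each library to the mean of the others of its group (root mean square of log2 CPM), numbered by replicate, with mean ± SD: 0.590 ± 0.095 at 10% and 0.832 ± 0.168 at 0.1%.

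Partly the same genes were variable at both doses. Across genes the SDs of both groups had a Spearman rho of 0.652, a description over 16516 genes that share their libraries and abundance. Among 13981 genes with a mean of 1 CPM or more, the 200 most variable at 10% and the 200 most variable at 0.1% shared 95 genes (47.5% of each list). A 10-fold or wider range of CPM within a group was seen in 404 of the 13981 genes at 10% and in 988 at 0.1%. Of the 200 most variable genes at 10%, replicate 1 held the highest value in 79 and replicate 4 in 52. Of those at 0.1%, replicate 4 held the highest value in 86 and replicate 1 in 52.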

How the data were processed

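Unnormalised gene counts, as the authors deposited them, came from a table with 15 of the listed libraries and another with the 5 at 0.1%, joined here by identifier. The submitters' processing notes name featureCounts 1.4.6-p4, STAR 2.4.1d and CASAVA 1.8.2. Build, annotation and strand setting were not given in those sources, so overlapping, antisense and near-identical genes are uncertain. A further 10 columns matching no listed sample were not used. Tables labelled RPKM were not used, since the ratio of count to value between a pair of libraries varied over genes from 0.710 to 1.50. None (0) of 26739 identifiers matched the RefSeq gene table.

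Genes passed filterByExpr by group, were scaled by TMM and tested with edgeR 4.0.16 in R 4.3.3, with 1 mean for each of 4 groups; SE is |log2 fold change| over the root of F. Bounds came from limma 3.58.1 voom, and DESeq2 1.42.0 was an alternative. Spread and components used log2 CPM (prior count 2) with the filter and TMM factors of all 20 libraries. A chi-square of counts between replicates was 50.6 to 417 per degree of freedom over 20 pairs, so none repeated another within sampling noise. Replicate numbers follow the sample list and only name libraries. Named genes are the 2 that rose and the 2 that fell with the smallest edgeR p and a mean of 1 CPM or more. The comparison and its tests were chosen with earlier results of these data known. The tests were tried on simulated data.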

Additional observations from a re-analysis of the deposited data

How the results depend on the processing

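The number of genes called by edgeR (8) was 9 with only both groups fitted or with DESeq2 size factors, and 8 with no filter, with a mean CPM of 1 or more or with robust empirical Bayes. It was 23 without replicate 5 of the 9-week 1% group, 139 with DESeq2 and 5 with limma voom, and ranged from 3 to 37 without any one of the 10 libraries. In settings added after the data were seen it was 0 without replicates 1 and 5 at 0.1% and 192 without its replicates 2 and 3. The share of calls higher at 10% was 37.5%, against 26.1% without that 9-week 1% library, 22.2% with both groups only, 15.8% with DESeq2 and 13.6% to 66.7% without any one of the 10 libraries. The cause of these shifts was not tested. Genes bounded within 2-fold numbered 7992 to 10768 over all alternatives, and those bounded within 1.5-fold 0 to 4487. The difference in spread was -0.274 to -0.239 under other priors, scalings and filters, and -0.313 to -0.179 without any one library. The difference on component 3 kept the smallest exact permutation p of 0.00794 with 500 genes, all genes or a prior count of 0.5. On the best matching component it was 17.28 to 41.9 without any one library. That setting, and the distances, shares and SDs without libraries at 0.1%, were added after the data were seen. Of genes below 1 CPM, which also had the largest median SDs, 89.9% were neither called nor bounded within 2-fold. No paired analysis was possible because the labels give no replicate numbers that tie libraries of different groups.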
